A study of Mus musculus with 9 samples.

Results

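Plau, Cemip2, Ltbp2, Col5a3 and Bcam encode a protease, a hyaluronan-degrading protein, an elastic fibre protein, a collagen chain and a laminin receptor that act in or on the extracellular matrix. They were looked up by gene name in the tables deposited for mouse kidney, and all 5 were found among the 489 distinct genes there. Plau and Cemip2 were in the table of genes that the authors listed for 3HB against old, which holds 113 genes. Ltbp2, Col5a3 and Bcam were in the table for young against old, which holds 389 genes, and none of the 5 was in both. Because each table holds only genes listed for its comparison, a gene's difference in that comparison is given here as a description with no test.

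The kidneys came from 3 young ICR mice of 2 months (young), 3 untreated ICR mice of 20 months (old) and 3 ICR mice of 20 months given 3-hydroxybutyrate, a ketone body (3HB). ICR is an outbred stock, and no group carried a genetic change. Per the methods, all were male, and the treated mice drank 3HB at 1 g/L from the age of 11 months. The labels and the text of the study name kidney as the sequenced tissue, except for 1 sentence of its methods that names muscle. Of 8 proximal tubule markers 1 was in a table (Lrp2, at 68.59 or more in every mouse), and of 6 skeletal muscle markers 0 were. Because the tables hold only listed genes, the absence of a marker does not tell which tissue was sequenced. Klk1 and Keg1, which are known from kidney and were picked after their values were seen, were at 1161.23 or more and 704.33 or more in every mouse. Values are the authors' normalized expression values, which are not stated to be TPM or FPKM. Total reads are not given, so the depth is unknown. In whole kidney RNA, fewer cells of a type and less RNA per cell cannot be told apart.

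The extracellular matrix of the kidney consists of the basement membranes under tubules and glomerular cells and of the interstitium between them, which holds collagen fibrils, elastic fibres and hyaluronan. Urokinase, the product of Plau, is a secreted serine protease named after urine and made by tubule epithelium. It cleaves plasminogen to plasmin, which dissolves fibrin and degrades matrix proteins. Cemip2 (formerly Tmem2) encodes a transmembrane protein described as a cell surface hyaluronidase. Ltbp2 belongs to the latent TGF-beta binding protein family and associates with fibrillin in elastic fibres. Col5a3 encodes the alpha 3 chain of type V collagen, a minor fibrillar collagen. Bcam, the Lutheran glycoprotein, is a receptor of the immunoglobulin superfamily that binds laminin through its alpha 5 chain.

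All 5 genes were placed with GENCODE mouse release 21 on GRCm38, the build in the submitters' processing notes. Plau (ENSMUSG00000021822) lies on the plus strand of chromosome 14 from 20836660 to 20843385, and its longest transcript has 11 exons and 2342 nt. Cemip2 (ENSMUSG00000024754) lies on the plus strand of chromosome 19 from 21778342 to 21858360, with 25 exons and 6667 nt. Ltbp2 (ENSMUSG00000002020) lies on the minus strand of chromosome 12 from 84783212 to 84876532, with 36 exons and 6769 nt. Col5a3 (ENSMUSG00000004098) lies on the minus strand of chromosome 9 from 20770050 to 20815067, with 67 exons and 6119 nt. Bcam (ENSMUSG00000002980) lies on the minus strand of chromosome 7 from 19756131 to 19771016, with 15 exons and 2429 nt. An annotated gene overlaps Cemip2 (AC148016.1), Ltbp2 (D030025P21Rik), Col5a3 (Gm26274) and Bcam (Gm26600) on the opposite strand, and Gm45114 overlaps Bcam on the same strand. Whether reads were counted by strand is not given, so reads of these partners may be included in the values.

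Promoter sequences of RefSeq (GRCm38.p6) were found for 3 of the 5 genes, which are the 3 listed for age. They are shown because Ltbp2 and Col5a3 were listed with higher means in old mice and Bcam with a lower one. Each runs 5′ to 3′ on the gene's own strand from 250 bases before the start of transcription to 50 bases after it, and capitals mark a GC box (GGGCGG) or a CCAAT box (CCAAT) on either strand. The positions are chr12:84876442-84876741 for Ltbp2, chr9:20815018-20815317 for Col5a3 and chr7:19770483-19770782 for Bcam, all on the minus strand. The Bcam window lies wholly inside the gene as GENCODE places it (19756131 to 19771016), so this RefSeq start is not the outermost GENCODE start.
Ltbp2: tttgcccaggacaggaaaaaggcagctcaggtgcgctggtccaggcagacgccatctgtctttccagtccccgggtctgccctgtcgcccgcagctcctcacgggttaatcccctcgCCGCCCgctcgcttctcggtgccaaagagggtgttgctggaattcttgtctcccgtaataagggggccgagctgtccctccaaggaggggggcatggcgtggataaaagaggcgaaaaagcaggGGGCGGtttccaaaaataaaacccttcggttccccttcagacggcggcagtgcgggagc
Col5a3: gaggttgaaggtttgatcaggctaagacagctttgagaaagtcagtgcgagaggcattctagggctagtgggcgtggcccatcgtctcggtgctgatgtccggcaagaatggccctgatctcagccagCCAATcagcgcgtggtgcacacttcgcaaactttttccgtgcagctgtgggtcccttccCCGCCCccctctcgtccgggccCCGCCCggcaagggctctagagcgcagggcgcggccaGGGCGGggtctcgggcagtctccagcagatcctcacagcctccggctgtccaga
Bcam: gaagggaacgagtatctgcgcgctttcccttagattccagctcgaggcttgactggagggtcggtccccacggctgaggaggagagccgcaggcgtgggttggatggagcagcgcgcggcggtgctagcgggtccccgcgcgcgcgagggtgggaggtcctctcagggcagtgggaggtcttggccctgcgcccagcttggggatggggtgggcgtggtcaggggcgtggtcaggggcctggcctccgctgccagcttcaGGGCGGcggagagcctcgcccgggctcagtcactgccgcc

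All 3 promoters were rich in G and C, at 61% for Ltbp2, 63.3% for Col5a3 and 71% for Bcam, where the median of 32851 promoters of the same length was 52.7%. The GC box matched at 2 places in Ltbp2, 3 in Col5a3 and 1 in Bcam, and 35.7% of all promoters held at least 1 match. In Ltbp2 the matches began 133 and 9 bases before the start, and in Col5a3 they began 63, 41 and 4 bases before it. The match in Bcam began 10 bases after the start. A CCAAT box was found once, in Col5a3, 122 bases before the start (37.4% of all promoters). The TATA box TATAAA (13.6% of promoters), the AP-1 site TGANTCA (7.81%) and the Smad box GTCTAGAC (0.213%) matched in none of the 3 windows. The searched letters did not overlap each other in these windows, and a match is a description of sequence, not a site of binding.

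Plau was higher in 3HB mice than in every other mouse. The young mice were at 195.23, 213.27 and 182.74, the old mice at 176.6, 201.68 and 258.69, and the 3HB mice at 503.65, 368.61 and 429.97. The lowest 3HB mouse thus lay above the highest old mouse, and the young and old mice overlapped. Mean values were 197.1 ± 15.3 (young), 212.3 ± 42.1 (old) and 434.1 ± 67.6 (3HB) (means with SD, n = 3 mice per group). The 3HB mean was 2.04 times the old mean, and the mean log2(value + 1) differed by 1.03 with a standard error of 0.21. Adding 1 shrinks the differences of low genes on this scale, but has little weight at the level of Plau. By the size of this difference Plau ranked 12 among the 43 genes that were higher with 3HB in its table, whose median was 0.83.

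The age difference of Plau, for which it was not listed, was 0.09 on the log2 scale with a standard error of 0.17 (exact two-sided permutation p = 0.8). Its direction rested on old mouse 3, since it was -0.059 without that mouse. Compared with young mice, 3HB mice were higher by 1.13 (standard error 0.14) without overlap (exact two-sided permutation p = 0.1). With 3 mice against 3 this p is the smallest possible. Each group of mice enters 2 of the 3 comparisons, so these are not independent. In the order of levels young and old were neighbours within their spread, and 3HB stood above both.

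Cemip2 also had its 3 highest values in the 3HB mice. The young mice were at 1.75, 1.51 and 4.38, the old mice at 2.74, 3.04 and 3.81, and the 3HB mice at 5.98, 6.56 and 5.59. Young mouse 3 lay above all old mice and below all 3HB mice. The group means were 2.55 ± 1.59 (young), 3.20 ± 0.552 (old) and 6.04 ± 0.488 (3HB) (means with SD, n = 3 mice per group). The 3HB mean was 1.89 times the old mean, and the log2 difference was 0.75 (standard error 0.12), rank 25 of the same 43 genes. Old and young mice differed by 0.32 (standard error 0.36; exact two-sided permutation p = 0.4), and this value was 0.67 without young mouse 3 and 0.12 without young mouse 2. Between 3HB and young mice the difference was 1.08 (standard error 0.35; exact two-sided permutation p = 0.1, the lowest attainable).

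Beside these counts, 38.1% of the 113 genes listed for 3HB were higher with 3HB without overlap, a share that the listing itself shapes. Of the 100 genes listed for 3HB only, 11.0% did not overlap between old and young mice, and neither Plau nor Cemip2 was among them. In the comparison of 3HB with young mice, 27.0% of the same 100 genes were higher with 3HB without overlap, and Plau and Cemip2 were among them. Lrp2, the only proximal tubule marker in a table (1 of 8), was also higher in the 3HB mice than in every other mouse. Among young mice Lrp2 was highest in young mouse 3, as Cemip2 was and Plau was not. Its level lay between 87.86 and 105.3 in old mice, between 143.0 and 154.52 in 3HB mice and between 68.59 and 116.6 in young mice. Between old and 3HB mice, ribosomal protein genes and mt-Nd3 moved the other way from Plau and Cemip2, as was noticed after the values were seen. All 13 ribosomal protein genes in the 3HB table were lower with 3HB, as were 70 of all 113 genes there. Their summed level was 8336.4 to 10143.5 in the old mice and 6916.03 to 7878.32 in the 3HB mice. In young mice the sum was 7242.29 to 10698.7, and young mouse 3, the young mouse highest in Cemip2, was the lowest young mouse in 9 of the 13 genes. The same mouse was also the lowest young mouse in Plau, at 182.74. The mitochondrial transcript mt-Nd3 was at 10277.6, 11247.1 and 7391.57 in young, at 8033.83, 8825.12 and 9133.63 in old, and at 6163.04, 6005.18 and 6616.71 in 3HB mice. The part of tubule cell content, of RNA quality or of library composition in the values of Plau and Cemip2 was not tested.

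**Figure D1:**
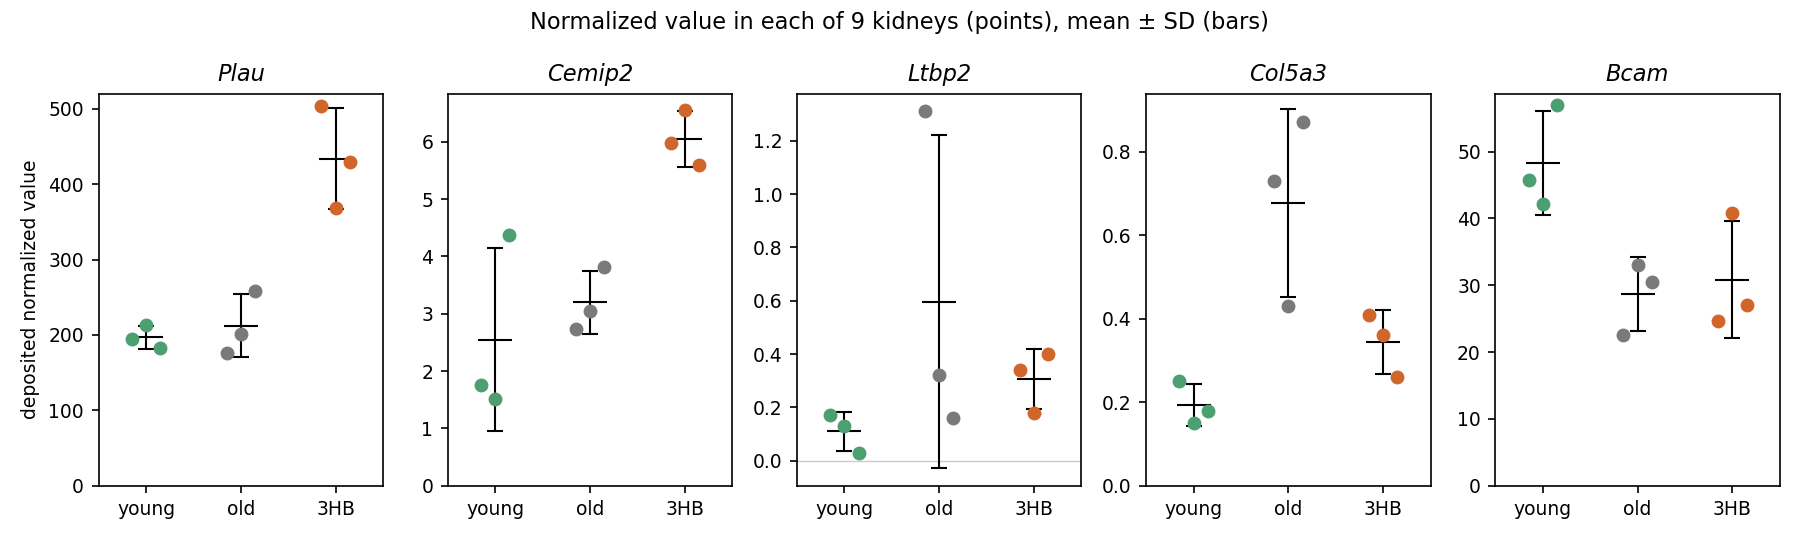
Deposited normalized value (vertical axis, starting near 0, a separate scale for each gene) of the 5 genes in the young, old and 3HB mice. Points are mice and bars are the mean ± SD of 3 mice. Plau and Cemip2 are highest in all 3HB mice, Col5a3 is highest in all old mice, 1 old mouse at 1.31 sets the old mean of Ltbp2, and Bcam is highest in all young mice.

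Ltbp2 was low in all 9 kidneys and was listed as changed with age. The young mice were at 0.17, 0.13 and 0.03, the old mice at 1.31, 0.32 and 0.16, and the 3HB mice at 0.34, 0.18 and 0.4. Old mouse 1 stood far above all others, and old mouse 3 lay below young mouse 1, so that young and old mice overlapped. The means were 0.110 ± 0.0721 (young), 0.597 ± 0.623 (old) and 0.307 ± 0.114 (3HB) (means with SD, n = 3 mice per group). On the log2 scale old mice were higher than young mice by 0.46 (standard error 0.31), and by 0.16 without old mouse 1. Adding 1 compresses such low values, and the log2 ratio of the arithmetic means was 2.44 for age (a ratio of 5.42), -0.96 for 3HB minus old and 1.48 for 3HB minus young. The ratios that use the old mean rest largely on old mouse 1 (1.31). The difference between 3HB and old mice was -0.23 (standard error 0.31; exact two-sided permutation p = 0.9) and turned to 0.075 without that mouse. Every 3HB mouse was above every young mouse, by 0.23 on average (standard error 0.09; exact two-sided permutation p = 0.1, the lowest attainable). These values have 2 decimals, and at such levels the number of reads behind them is not known.

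Col5a3, also with values under 1 in all mice, did not overlap between any of the 3 groups. The young mice were at 0.25, 0.15 and 0.18, the old mice at 0.73, 0.43 and 0.87, and the 3HB mice at 0.41, 0.36 and 0.26. All old mice were above all 3HB mice, and all 3HB mice were above all young mice, although the gap between old mouse 2 (0.43) and 3HB mouse 1 (0.41) and the gap between 3HB mouse 3 (0.26) and young mouse 1 (0.25) were small. The mean values were 0.193 ± 0.0513 (young), 0.677 ± 0.225 (old) and 0.343 ± 0.0764 (3HB) (means with SD, n = 3 mice per group). The old mean was 3.5 times the young mean, while the difference on the log2(value + 1) scale was 0.48 (standard error 0.12). The 3HB mean was 0.507 times the old mean, a log2 difference of -0.31 (standard error 0.12; exact two-sided permutation p = 0.1, the lowest attainable). Between 3HB and young mice the log2 difference was 0.17 (standard error 0.06; exact two-sided permutation p = 0.1).

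Bcam was listed for age, with lower values in old mice, and overlapped between old and 3HB mice. The young mice were at 45.75, 42.1 and 56.95, the old mice at 22.48, 33.06 and 30.42, and the 3HB mice at 24.65, 40.82 and 26.99. All young mice were above all mice of 20 months, and the old and 3HB mice overlapped. The means were 48.3 ± 7.74 (young), 28.7 ± 5.51 (old) and 30.8 ± 8.74 (3HB) (means with SD, n = 3 mice per group). The old mean was 0.594 times the young mean, and the log2 difference was -0.74 (standard error 0.21). The 3HB mice differed from the old mice by 0.09 (standard error 0.27; exact two-sided permutation p = 0.8), which turned to -0.13 without 3HB mouse 2 and to -0.074 without old mouse 1. Compared with young mice, 3HB mice were lower by a log2 difference of -0.65 (standard error 0.25; exact two-sided permutation p = 0.1, the lowest attainable).

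Among the 389 genes listed for age, 65.6% were higher in old mice without overlap, as Col5a3 was and Ltbp2 was not. A further 27.0% were lower without overlap, as Bcam was. These shares stand beside the members only as a background, since all of these genes had been listed on the same mice. Ranks by size within the table depend on the level of a gene, since adding 1 shrinks low genes most. Col5a3 ranked 261 and Ltbp2 264 among 271 genes higher in old mice, with a median of 1.58 over those genes. With a pseudocount of 0.1 their ranks were 235 and 231, with a median of 2.32. Bcam ranked 94 among the 118 lower genes, with a median of -1.06, and 113 with the pseudocount of 0.1. Of the 376 genes listed for age only, 11.7% did not overlap between 3HB and old mice, and Col5a3 was 1 of them. Between 3HB and young mice, 83.5% of the 376 did not overlap, and Ltbp2, Col5a3 and Bcam were among them.

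Of 8 markers of B and plasma cells, 5 were in the age table and had higher means in old mice (Cd79a, Mzb1, Jchain, Igkc and Ighm). Their summed level was 40.26 to 212.82 in young, 853.46 to 3083.12 in old and 2305.08 to 3438.51 in 3HB mice. The only T cell marker in a table (1 of 5), Cd8a, was at 0.47 to 5.37 in young, 0.33 to 0.8 in old and 0.47 to 0.94 in 3HB mice. The only urothelium and papilla marker (1 of 5), Upk1b, was at 0.03 to 2.73 in young, 0 to 0.03 in old and 0.03 to 0.28 in 3HB mice, with its highest value in young mouse 3. None of the markers of fibroblasts, pericytes and smooth muscle (9), macrophages and monocytes (9), endothelium (6), collecting duct (6), loop of Henle and distal tubule (5) or podocytes (5) was in a table. Other genes known from such cells were, and are named after their values were seen. Lyz2, a lysozyme of myeloid cells, was at 7.54 to 8.69 in young, 22.92 to 72.01 in old and 34.25 to 42.87 in 3HB mice, with its highest value in old mouse 1. Hsd11b2 and Krt7, known from collecting duct epithelium, were lower in old mice as Bcam was, with means of 139.2 and 55.0 in young, 83.9 and 24.8 in old and 95.0 and 30.7 in 3HB mice. The part of any of these cells in the values of Ltbp2, Col5a3 and Bcam was not tested. Of the 10 tested differences, 6 had the smallest possible p of 0.1, which were 3HB against young for all 5 genes and 3HB against old for Col5a3. Each of these 6 tests uses a group of mice on which the gene had been listed, so they are not independent of the listing. In this family the smallest Benjamini-Hochberg adjusted p over the 10 permutation tests was 0.17.

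**Figure D2:**
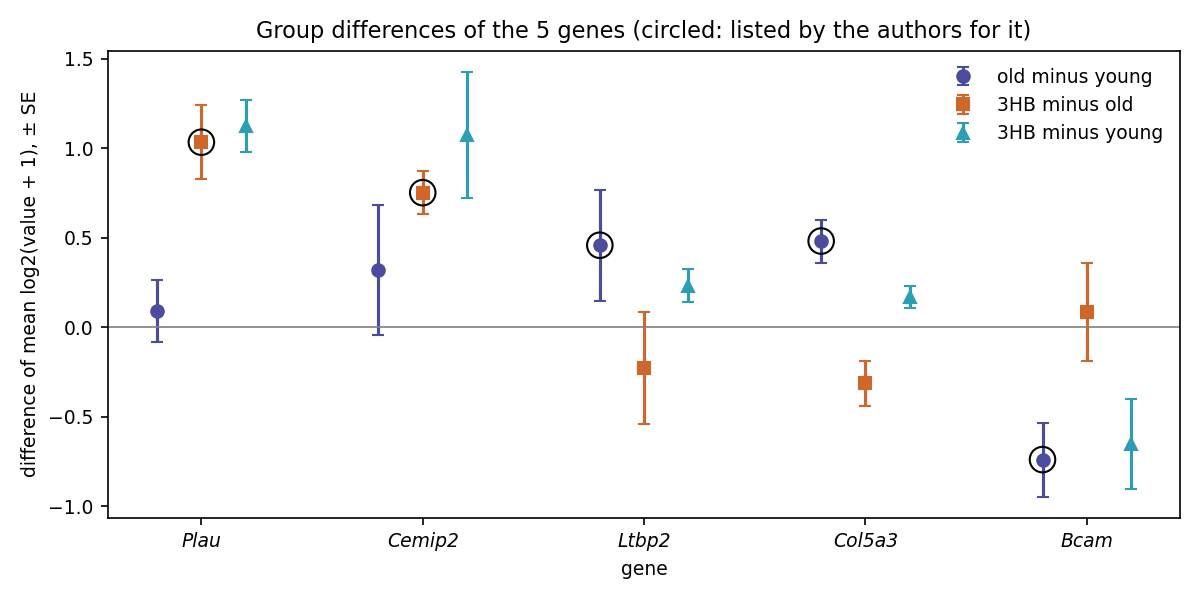
Difference of the group means of log2(value + 1) with its standard error for the 5 genes, for old minus young (circles), 3HB minus old (squares) and 3HB minus young (triangles), 3 mice per group. Rings mark differences for which the authors listed the gene. Plau and Cemip2 have their largest values in the comparisons with 3HB mice (1.03 to 1.13 and 0.75 to 1.08), and Bcam is negative against young mice in both groups of 20 months.

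In the deposited annotation, no GO term was attached to more than 2 of the 5 genes. Col5a3 and Bcam shared cell-matrix adhesion, a term on 8 of the 489 genes, and Plau and Cemip2 shared angiogenesis, a term on 5. Plau and Bcam shared cell surface, which was on 33 genes. In KEGG, Plau was placed among others in the complement and coagulation cascades and in NF-kappa B signaling, and Col5a3 in protein digestion and absorption. Domain annotation gave a kringle and a trypsin domain for Plau and a G8 domain for Cemip2. It gave calcium-binding EGF and TB domains for Ltbp2, a fibrillar collagen C-terminal domain for Col5a3 and immunoglobulin domains for Bcam.

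Around these members, 7 lists with 262 genes of the matrix and its turnover were looked up. Of these, 11 were in the age table, 7 higher and 4 lower in old mice, where the whole table had 271 of 389 higher (69.7%, against 63.6% for the lists). The lists' median log2 difference with age was 0.48 over 11 genes, and the whole table's was 1.14. Without regard to sign the medians were 0.89 and 1.37. With a pseudocount of 0.1, an alternative added after seeing the data, the signed medians were 1.42 for the lists and 1.74 for the whole table, and those without sign were 1.48 and 2.06. In the 3HB table there were 2, Plau and Cemip2, both higher, where 43 of all 113 genes were higher. List genes that are in neither table were either not listed by the authors or not measured, and their values were not analysed here.

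In the list for plasminogen activation (22 genes), Serpine2 and A2m accompanied Plau. Serpine2, also called protease nexin 1 and an inhibitor of urokinase and thrombin, had values of 11.94, 4.87 and 7.19 in the young mice, of 20.72, 30.4 and 14.94 in the old and of 28.07, 25.85 and 34.03 in the 3HB mice. It was listed for age, with a difference of 1.38 (standard error 0.43), and its difference between 3HB and old mice was 0.44 (standard error 0.30; exact two-sided permutation p = 0.3). The old and 3HB mice overlapped. A2m, a broad protease inhibitor, was listed for age, with 1.29 ± 0.645 (young), 0.0467 ± 0.0351 (old) and 0.0967 ± 0.00577 (3HB) (means with SD, n = 3 mice per group).

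Of the hyaluronan list (29 genes), Cemip2, Cd44 and Hapln1 were in the tables. Hapln1, a link protein that ties proteoglycans to hyaluronan, had values of 0.04, 0.19 and 0.53 in the young mice, of 0.54, 1.73 and 0.38 in the old and of 3.18, 2.16 and 3.76 in the 3HB mice. It had been listed for age, where the groups overlapped, and not for 3HB. The tests of 3HB against old mice for this and the other list genes use the old mice on which these genes were listed for age, so they are not independent of the listing. Every 3HB mouse was above every old mouse, with a log2 difference of 1.15 (standard error 0.35; exact two-sided permutation p = 0.1, the lowest attainable). Cd44, the main hyaluronan receptor, was at 0.247 ± 0.0862 (young), 1.79 ± 0.785 (old) and 1.53 ± 0.331 (3HB) (means with SD, n = 3 mice per group), with an overlap of old and 3HB values (exact two-sided permutation p = 0.7).

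Among collagens and their processing genes (67 genes), Col27a1, another fibrillar collagen chain, had a difference of the opposite sign to Col5a3 with age. It had values of 10.43, 7.22 and 12.21 in the young mice, of 2.59, 4.34 and 9.1 in the old and of 8.19, 7.8 and 6.67 in the 3HB mice. Its age difference was -0.89 (standard error 0.48), with overlap between the groups, and old mouse 3 lay above all 3HB mice. In the basement membrane list (32 genes), Lama3, the laminin alpha 3 chain, was lower in old mice in the age table, like Bcam. It was at 3.77 ± 0.665 (young), 1.94 ± 0.281 (old) and 1.94 ± 0.834 (3HB) (means with SD, n = 3 mice per group), and its difference between 3HB and old mice was -0.03 (standard error 0.24; exact two-sided permutation p = 0.8). Of the elastic fibre list (31 genes), only Ltbp2 was in a table.

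The lists for matrix proteases (42 genes) and for matricellular proteins (39 genes) each had 1 gene in a table. Mmp12, the macrophage elastase, was at 0.580 ± 0.277 (young), 2.84 ± 0.821 (old) and 1.46 ± 0.748 (3HB), and Smoc1, a matricellular protein of basement membranes, was at 0.407 ± 0.221, 4.80 ± 1.36 and 3.86 ± 0.186 (means with SD, n = 3 mice per group). Both were in the age table, higher in old mice by 1.27 (standard error 0.24) for Mmp12 and by 2.03 (standard error 0.24) for Smoc1. The values of old and 3HB mice overlapped for each of them (p = 0.2 for Mmp12 and p = 0.4 for Smoc1 by the exact permutation test). Among the 11 list genes in the age table, old and 3HB mice did not overlap in 3 (Col5a3, Hapln1 and A2m), beside the 11.7% given above. Col5a3 was lower with 3HB, and Hapln1 and A2m were higher. A2m was at 0.01 to 0.08 in old mice and at 0.09 to 0.1 in 3HB mice, so its gap was very small.

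**Figure D3:**
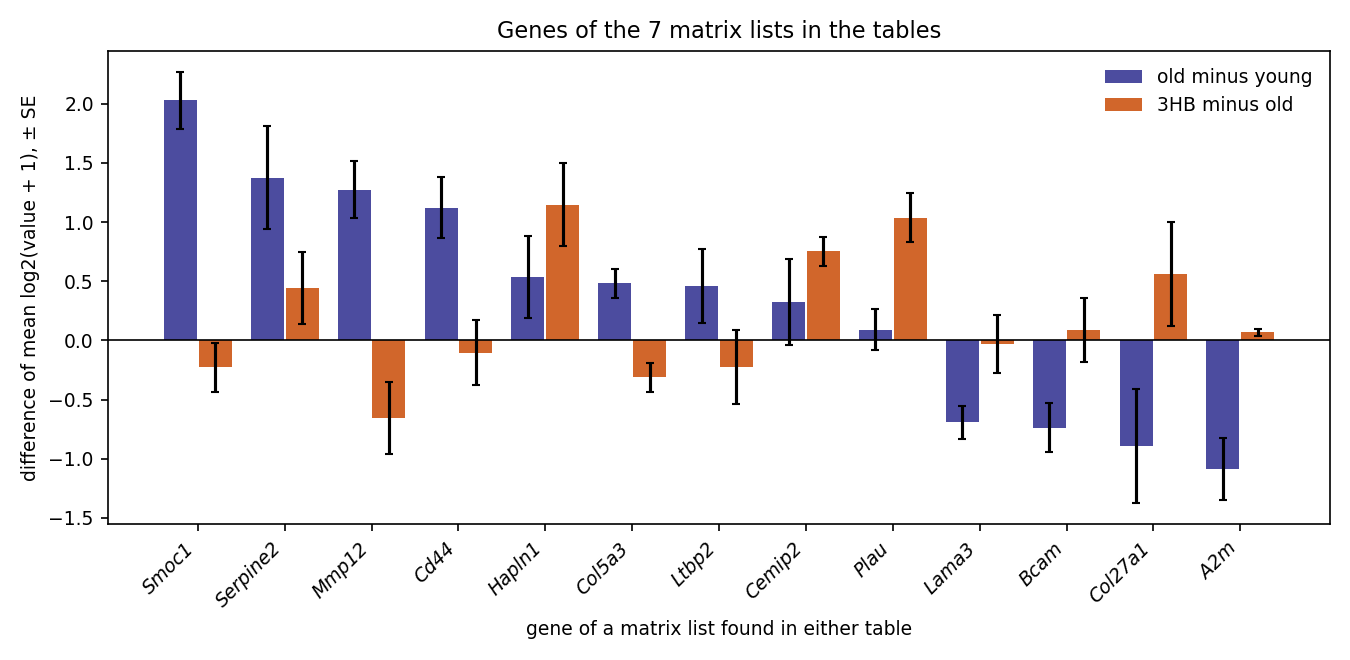
Difference of the group means of log2(value + 1), with its standard error, for the 13 genes of the 7 matrix lists that were in either table, as bars for old minus young and for 3HB minus old (3 mice per group, the old mice shared by both). From left to right the age difference runs from 2.03 for Smoc1 to -1.08 for A2m, and the 3HB difference is largest for Hapln1 (1.15) and Plau (1.03).

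For each member the genes with the most similar pattern were sought among 366 other named genes of the tables, by Pearson correlation of log2(value + 1) over the 9 mice. The mice share their groups, and the tables hold only listed genes, so these values are descriptions. Cemip2 was closest to Lrp2 (r = 0.99), the endocytic receptor megalin, to Ubxn2a (r = 0.98) and to the kinase gene Uhmk1 (r = 0.98). The likeness was as high for deviations from the group means, where r was 0.98 for Lrp2 and 0.99 for Ubxn2a. Young mouse 3 was the highest young mouse in all 4 genes, at 4.38 for Cemip2, 116.6 for Lrp2, 21.7 for Ubxn2a and 14.21 for Uhmk1. In total 23 genes had r over 0.9 with Cemip2 and 0 had so with Plau.

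The genes closest to Plau were Cyp24a1, the vitamin D 24-hydroxylase (r = 0.84), Hapln1 (r = 0.83) and Fgd3 (r = 0.81). For deviations from the group means r was 0.02, -0.08 and 0.14. Plau and Cemip2 themselves had r = 0.75 over the 9 mice and -0.08 for deviations.

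Col5a3 was closest to Tgtp2 (r = 0.97), Ciita (r = 0.96) and Ifi47 (r = 0.96). Tgtp2 and Ifi47 encode GTPases induced by interferon gamma, and Ciita the transactivator of MHC class II genes. All 4 genes had their lowest old value in old mouse 2, and the deviations from the group means had r between 0.87 and 0.90. Ltbp2 was closest to Clec4n (r = 0.86), Cybb (r = 0.85) and Ms4a7 (r = 0.81), which are known from myeloid cells. In each of these, old mouse 1 was the highest mouse, at 2.45 for Clec4n, 2.71 for Cybb and 2.54 for Ms4a7. By ranks, which give that mouse less weight, none of the 3 was among the 3 genes closest to Ltbp2, and the closest was Cd79a (rho = 0.93), a gene of B cells. Bcam was closest to Ybx2 (r = 0.96), Prkcq (r = 0.94) and Gfra1 (r = 0.92), which were all in the age table and lower in old mice. In Ybx2, 3HB mouse 2 was the highest 3HB mouse at 12.93, as it was in Bcam.

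**Figure D4:**
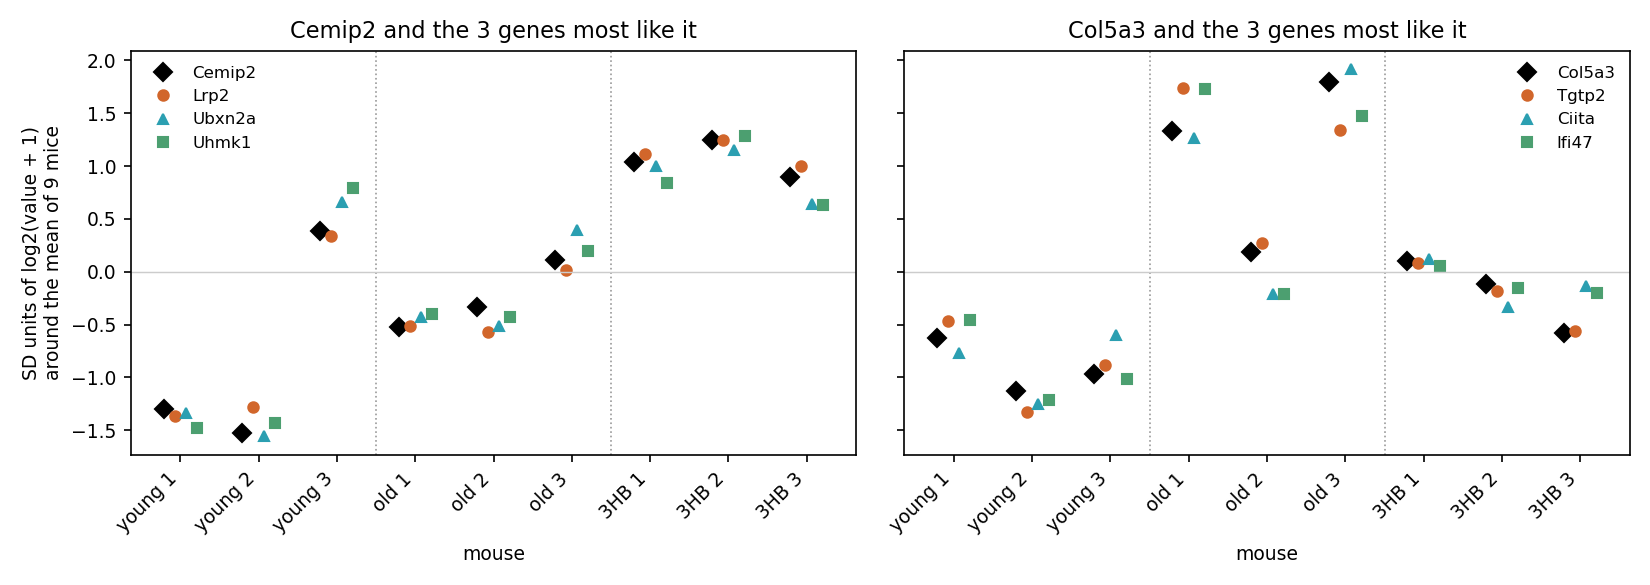
Cemip2 (left) and Col5a3 (right) with the 3 genes most like each over the 9 mice. The vertical axis gives log2(value + 1) in SD units around each gene's mean over 9 mice, and each position on the horizontal axis is a mouse. In the left panel young mouse 3 stands above the other young mice in all 4 genes, and in the right panel old mouse 2 stands below the other old mice in all 4 genes.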

How the data were processed

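The libraries of 9 mouse kidneys were read from both ends (150 bp). The submitters' processing notes name CASAVA, HISAT2 and StringTie and the build GRCm38, without versions or roles. The authors deposited 2 tables of a normalized expression signal with 2 decimals per gene and mouse. How values were normalized, with which annotation, and by which test and threshold genes were listed is not given in the sources used here. Each table holds only the genes listed for its comparison, so no fit across all genes could be made, and the planned exact tests on single genes were used. No column held the authors' fold changes or p-values.

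Differences are those between group means of log2(value + 1), with standard errors from the SDs of both groups. Two-sided exact permutation tests covered the 20 assignments of 6 mice, whose smallest p is 0.1, and were run only for comparisons for which a gene was not listed. P-values measure only the spread between these samples. The 5 genes and the lists were chosen with earlier results of these data known. Named genes are the 5 members, the genes of 7 matrix lists in either table, and per member the 3 genes most like it, without gene models and immunoglobulin segments. Gene models came from GENCODE mouse release 21 and promoters from RefSeq. The functions were tested on simulated data. Replicate numbers were checked for pairing by the correlation of deviations from the group means over 489 genes, which ran from -0.24 to 0.16 in 9 pairs and was over 0.1 in 2, so the numbers do not pair the mice. The alternatives were pseudocounts of 0.1 and 0.01, medians, ratios of arithmetic means, leaving out each mouse, a replicate block and, for counts, a highest group mean of at least 1. Computations used scipy 1.17.1, pandas 2.3.3 and numpy 2.4.6 in Python 3.11.15, with plots by matplotlib 3.10.9.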

Additional observations from a re-analysis of the deposited data

How the results depend on the processing

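The 15 differences of the 5 genes were recomputed 165 times under the alternatives, of which 140 kept their direction and moved by less than the spread between mice, 19 moved further and 6 changed direction. The low genes depended on the pseudocount. With pseudocounts of 0.1 and 0.01 and as log2 ratios of arithmetic means, the age difference was 1.42, 2.07 and 2.44 for Ltbp2 and 1.37, 1.73 and 1.81 for Col5a3. In the same order, 3HB minus young was 0.98, 1.59 and 1.48 for Ltbp2 and 0.60, 0.80 and 0.83 for Col5a3, and 3HB minus old was -0.78, -0.92 and -0.98 for Col5a3 and 0.91, 0.93 and 0.92 for Cemip2. As a ratio of arithmetic means, 3HB minus old for Ltbp2 was -0.96. A smaller pseudocount alone left that value at -0.44 and -0.48, and the ratio of arithmetic means also gives more weight to high mice such as old mouse 1. With medians, 3HB minus old turned to 0.022 for Ltbp2 and to -0.17 for Bcam. Leaving out each mouse, the age difference ran from -0.059 (without old mouse 3) to 0.21 for Plau, and 3HB minus old ran from -0.42 to 0.075 (without old mouse 1) for Ltbp2 and from -0.13 (without 3HB mouse 2), with -0.074 without old mouse 1, to 0.22 for Bcam. The listed 3HB differences stayed between 0.91 and 1.19 for Plau and between 0.67 and 0.86 for Cemip2 when any mouse of either group was left out. With the replicate block, the difference of Plau between 3HB and old was 1.03, as without it, and the exact sign-flip test over 3 pairs cannot go below p = 0.25. Counts of list genes in each table and direction stayed within 1.5 times their value, although leaving out a mouse cannot change which genes a table holds. Shares without overlap were rerun only in both directions together, as 92.5% of the age table (92.8% to 96.1% without any 1 mouse) and 89.4% of the 3HB table (89.4% to 96.5%), and leaving out a mouse cannot lower them. The shares by direction or for part of a table were not rerun. The genes named as most similar depended on the measure. Of the 3 for each gene, the closest 3 by Spearman correlation shared 0 for Plau and Ltbp2 and 1 for Cemip2, Col5a3 and Bcam. By deviations from the group means they shared 0 for Plau and Col5a3, 1 for Cemip2 and Bcam and 2 for Ltbp2. The correlation of Hapln1 with Plau changed sign for these deviations. The depth is unknown, which limits what can be said of Ltbp2, Col5a3 and A2m.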

Other observations

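The deposited GO annotation names the extracellular matrix, collagen or basement membranes for 14 of the 389 genes listed for age and for 1 of the 113 listed for 3HB, which is the chaperone gene Hsp90aa1 and neither Plau nor Cemip2. Old mice had the higher mean in 11 of the 14 and the lower in 3, beside a higher mean in 69.7% of all 389 genes. Of the 14, 7 were in the lists above, among them Col5a3, while Ltbp2 and Bcam were not among the 14. The other 7 were named here after their values had been seen. They include the 3 chains of fibrinogen, the precursor of the fibrin that plasmin dissolves. Fga was at 5.44 ± 1.5 (young), 20.3 ± 12.3 (old) and 14.9 ± 11.8 (3HB) (means with SD, n = 3 mice per group). Fgg was at 1.35 ± 0.665, 18.7 ± 14 and 6.67 ± 5.55 in the same order, and Fgb at 0.0933 ± 0.0814, 0.737 ± 0.431 and 0.440 ± 0.354. Old and 3HB mice overlapped in all 3 chains.

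Of the genes listed for age only, 11.7% did not overlap between 3HB and old mice, which is the background for the next values. Grem1, a secreted antagonist of bone morphogenetic proteins, was at 0.0333 ± 0.0306 (young), 0.597 ± 0.291 (old) and 1.03 ± 0.0611 (3HB) (means with SD, n = 3 mice per group), and all 3HB mice were above all old mice. Tinagl1, a matrix protein related to the tubulointerstitial nephritis antigen, was at 42.3 ± 11.1 (young), 23.9 ± 2.91 (old) and 35.2 ± 3.42 (3HB), without overlap between 3HB and old mice. Lrrc15, a membrane protein of fibroblasts, was at 0.0567 ± 0.0814, 0.547 ± 0.313 and 0.763 ± 0.415, and old and 3HB mice overlapped. Cstb, an inhibitor of cysteine cathepsins, was at 67.4 ± 22.7, 210.4 ± 9.82 and 173.7 ± 7.14, without overlap between any groups.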
